A study of Rattus norvegicus with 4 samples.

Results

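Wnt and BMP proteins are secreted signals that help to decide whether precursor cells in fat tissue become adipocytes. The genes of these pathways were described in the visceral fat of male Wistar rats, 130 days of age, in 2 obese and 2 control samples, each measured on 1 single-colour oligonucleotide array. The labels name no genotype, diet or treatment and do not state how obesity arose, how many animals gave a sample and which visceral depot was taken. Nothing in the labels says that replicates came from separate animals. The p-values here set the difference between groups against the variation between samples of a group, and that variation may be technical.

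Members were the genes whose single symbol in the platform annotation starts with Wnt, Fzd, Sfrp, Dkk, Axin, Dvl or Bmp, leaving out Bmp1, plus any probe sets of Lrp5, Lrp6, Ctnnb1, Apc, Tcf7l2, Wif1, Grem1 and Nog. This gave 33 genes from 43 probe sets, out of 15866 probe sets in all and 12783 with 1 gene symbol. Each gene is represented by its probe set with the highest mean signal over the 4 arrays. Signals under 20.8, the 20th percentile over all arrays, were treated as lying at a floor. Of the 33 genes, 30 exceeded 20.8 on at least 2 arrays and were tested. The other 3 were Wnt5b and Dvl2, which lay under it on all 4 arrays, and Grem1, which exceeded it on 1. A gene with a signal under the floor is dim on this array, which does not show that its RNA was absent.

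In the canonical Wnt pathway, a Wnt ligand joins a Frizzled receptor (Fzd genes) to the co-receptor Lrp5 or Lrp6. Dishevelled (Dvl genes) then restrains the complex of Axin and Apc that marks beta-catenin (Ctnnb1) for destruction, and beta-catenin enters the nucleus to work with factors such as Tcf7l2. Canonical Wnt signalling is known for holding precursor cells back from becoming adipocytes. BMP ligands bind type I receptors such as Bmpr1a together with the type II receptor Bmpr2, which activate Smad1 and Smad5. Bmp4 is known for committing precursor cells to the adipocyte lineage.

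The promoters of 3 members are shown because they belong to the gene with the largest log2 difference towards the obese samples (Bmp3), the gene with the largest towards the control samples (Bmp2k), and Axin2, a well-known target of canonical Wnt signalling. The windows run from 250 bases before to 50 bases after the RefSeq start used for each gene in the rat assembly GRCr8. Bmp3 lies at chr14:11041233-11041532 on the minus strand, Bmp2k at chr14:12882608-12882907 on the minus strand and Axin2 at chr10:94398535-94398834 on the plus strand. Each is printed 5′ to 3′ in the direction of transcription. Capitals mark matches on either strand to a TCF/LEF motif, spelled CTTTGAA or as a variant CTTTGAT, with the further forms CTTTGTA or in some sites CTTTGTT, and matches to the SMAD motif, which is spelled GGCGCC.
Bmp3: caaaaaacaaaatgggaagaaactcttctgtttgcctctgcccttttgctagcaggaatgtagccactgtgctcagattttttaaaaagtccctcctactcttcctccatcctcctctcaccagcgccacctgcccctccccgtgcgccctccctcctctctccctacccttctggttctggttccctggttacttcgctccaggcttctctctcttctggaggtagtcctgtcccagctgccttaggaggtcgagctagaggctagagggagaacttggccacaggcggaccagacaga
Bmp2k: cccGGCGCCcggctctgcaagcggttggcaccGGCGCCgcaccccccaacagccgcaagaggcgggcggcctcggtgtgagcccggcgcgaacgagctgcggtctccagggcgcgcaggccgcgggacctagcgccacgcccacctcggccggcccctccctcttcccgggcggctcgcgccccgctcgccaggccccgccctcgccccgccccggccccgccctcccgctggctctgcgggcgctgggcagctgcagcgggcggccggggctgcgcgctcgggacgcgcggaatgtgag
Axin2: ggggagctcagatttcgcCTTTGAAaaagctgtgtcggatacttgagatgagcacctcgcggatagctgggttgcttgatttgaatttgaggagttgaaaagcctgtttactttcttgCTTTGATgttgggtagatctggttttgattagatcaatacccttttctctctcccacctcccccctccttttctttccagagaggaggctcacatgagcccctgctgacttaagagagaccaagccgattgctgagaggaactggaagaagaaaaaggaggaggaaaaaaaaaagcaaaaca
Axin2 held 2 TCF/LEF matches, starting 232 and 132 bases before the start, and Bmp2k held 2 SMAD matches, 247 and 218 bases before it. Bmp3 held 0 matches to either in this window. Of the 23 members with a promoter in the RefSeq table, 2 held a TCF/LEF match (Axin2 and Bmpr1a), against 16.8% of all 27457 promoters. A SMAD match was held by 9 of the 23, against 11.8% of all promoters. A match is a description of letters and not a binding site.

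Across all 12929 tested probe sets, 0 passed limma's moderated test at a Benjamini-Hochberg adjusted p of 0.05 (0% called), and 1073 had an unadjusted p under 0.05 (8.3%). An unmoderated test also passed 0, with 882 under 0.05. Accordingly 0 of the 30 tested members passed, with a lowest adjusted p of 0.467. An unadjusted p under 0.05 was found for 2 of the 30 (Bmp3 and Bmp2k), against 8.59% of the 9011 genes with a tested brightest probe set. No exact permutation test was run, since the smallest two-sided p that 2 arrays against 2 allow is 0.333. For 4 members, both obese arrays exceeded both control arrays (Fzd4, Axin2, Bmp3 and Bmpr1a), against 16.4% of the 9011 genes. Both were lower for 2 members (Tcf7l2 and Bmp2k), against 24%. The first number is near its background share and the second is under it, with no test of either, and the groups overlapped for the other 24 members. Centring the arrays on their medians gave 7 above and 2 below, and the shares over all tested probe sets then moved as well, to 21.7% above and 16.9% below, against 15.6% and 24.4% without it. The members' median log2 difference, obese minus control, was 0.02, where all 9011 genes had -0.04.

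**Figure D1:**
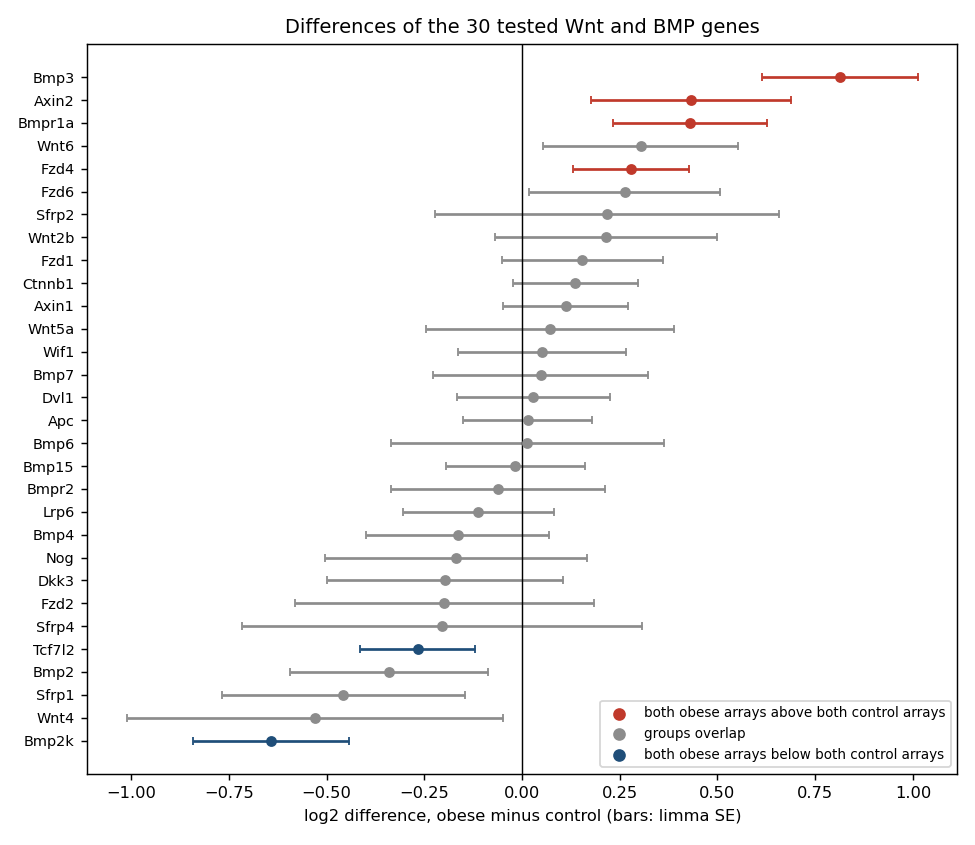
Log2 difference of signal, obese minus control, for the 30 tested Wnt and BMP genes (horizontal axis), with limma's standard error as bars and colour for whether the 2 obese and 2 control arrays overlap. Differences run between -0.64 for Bmp2k and 0.81 for Bmp3, and 24 genes have overlapping groups.

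Bmp3, an atypical BMP that is known to oppose other BMPs, had the largest difference among the members. Its signals were 76.5 and 94.5 on obese replicates 1 and 2, against 48 and 48.8 on control replicates 1 and 2. Both obese arrays were clearly above the 2 nearly equal control arrays. The means were 85.5 ± 12.7 in obese and 48.4 ± 0.57 in control tissue (SD, n = 2 each), a log2 difference of 0.81 ± 0.20 (SE) or 1.76-fold. It did not pass over all probe sets (limma, unadjusted p = 0.00698, adjusted p = 0.467). Its log2 difference stayed between 0.66 and 0.97 whichever array was left out.

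The type I receptor gene Bmpr1a had signals of 143.5 and 195.5 on the obese arrays and of 118.4 and 130.5 on the control arrays. The groups did not overlap, with obese replicate 2 highest. Its log2 difference was 0.43 ± 0.20 (limma adjusted p = 0.629), and it was 0.21 without obese replicate 2 and 0.65 without obese replicate 1. Bmpr2, the type II receptor gene that works with it, had 130.9 and 77.2 on the obese arrays and 102.8 and 107.1 on the control arrays. Here the 2 obese arrays lay on either side of both control arrays. The log2 difference of Bmpr2 was -0.06 ± 0.27, a sign that turned under each of the 3 other scalings.

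Bmp2k encodes a kinase named for its induction by BMP2, related to kinases of clathrin-coated vesicle traffic. It is a member through its symbol and is not a ligand or receptor of the pathway. Its signals were 163.7 and 115.5 on the obese arrays, against 210.1 and 219.1 on the control arrays. Both obese arrays were below both control arrays, with replicate 2 lowest. The log2 difference was -0.64 ± 0.20, 0.64-fold (limma, unadjusted p = 0.0192, adjusted p = 0.522). It ranged between -0.89 and -0.39 when 1 array was left out.

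The remaining BMP ligands had overlapping groups. Bmp2 had 128.8 and 87.5 on the obese arrays and 116.4 and 155.1 on the control arrays, a log2 difference of -0.34 ± 0.25. Bmp4, the ligand of adipocyte commitment, had 107.6 and 73 on the obese arrays and 95.5 and 103.3 on the control arrays (-0.16 ± 0.23). For both, obese replicate 2 was the lowest of the 4 arrays. Bmp6, which is known for inducing hepcidin in liver, had 145.2 and 70.6 on the obese arrays and 93.9 and 107.1 on the control arrays. Its obese arrays held the highest and the lowest of the 4 values, so that the log2 difference of 0.01 ± 0.35 averages a wide gap. The second Bmp6 probe set gave -0.54 with the lowest signal, 20, again on obese replicate 2.

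Bmp7, known in mice for promoting brown fat, had 95.5 and 112.5 on the obese arrays and 129.3 and 77.8 on the control arrays. In this gene the control arrays were the wider pair, and the obese arrays lay between them. Bmp15, an oocyte growth factor, lay between 15.3 and 21.4 on all 4 arrays, close to the floor, and its difference of -0.02 changed sign under each of the 3 other scalings, among other alternatives. Nog, which encodes the BMP-binding antagonist noggin, had 50.5 and 26.1 on the obese arrays and 41.5 and 40.1 on the control arrays (-0.17 ± 0.33). Grem1, which encodes the antagonist gremlin, had 18.7 and 5.9 on the obese arrays and 27.1 and 17.4 on the control arrays, and was not tested.

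**Figure D2:**
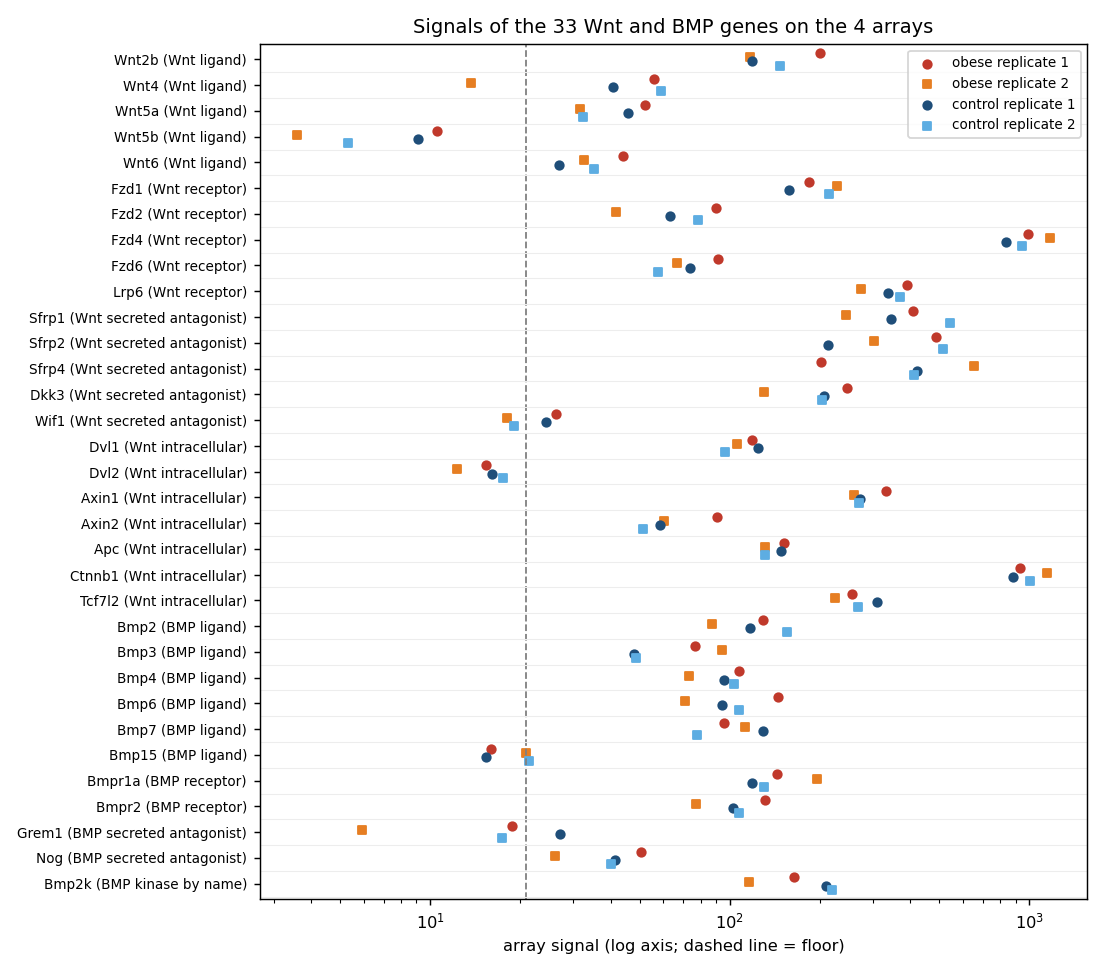
Array signal (log axis) of each of the 33 Wnt and BMP genes on obese replicates 1 and 2 and control replicates 1 and 2, in the order of their roles, with the floor of 20.8 as a dashed line. Bmp3 has both obese points to the right of both control points, and for Fzd2, Sfrp4, Bmp6 and Nog the 2 obese points lie on either side of both control points.

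Among the Wnt ligands, 4 of 5 were tested and all had overlapping groups in the values as deposited. Under each of the 3 other scalings, Wnt6 had both obese arrays above both control arrays. Wnt4, a ligand with roles in kidney and reproductive tract development, had 55.8 and 13.7 on the obese arrays and 40.9 and 59.1 on the control arrays. Only obese replicate 2 lay under the floor, so the log2 difference of -0.53 ± 0.48 depends on the floor. Without that array the sign turned, to 0.18. Wnt2b had 200.5 and 117.1 on the obese arrays and 118.3 and 147.3 on the control arrays. Wnt6, which restrains adipocyte formation in cultured precursors, had 44.1 and 32.7 on the obese arrays and 26.9 and 35.2 on the control arrays. Wnt5a, a ligand of non-canonical signalling, had 52.1 and 31.5 on the obese arrays and 45.8 and 32.4 on the control arrays. For Wnt2b, Wnt5a and Wnt6, obese replicate 1 was the highest of the 4 arrays. The log2 differences were 0.22 ± 0.28 for Wnt2b, 0.30 ± 0.25 for Wnt6 and 0.07 ± 0.32 for Wnt5a.

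Of the 5 receptor genes, Fzd4 alone had non-overlapping groups in the values as deposited. Its signals were 991.1 and 1169.5 on the obese arrays and 837.6 and 940.8 on the control arrays, a log2 difference of 0.28 ± 0.15 (limma adjusted p = 0.676). The gap between the closest arrays of the 2 groups was small beside the spread within each. A second, dimmer Fzd4 probe set overlapped between groups and gave 0.08. Fzd1, Fzd2 and Fzd6 gave 0.15, -0.20 and 0.26. With median centring and with quantile normalization, Fzd6 also had both obese arrays above both control arrays. Fzd2 had 90.2 and 41.6 on the obese arrays and 63.1 and 78.3 on the control arrays, with the obese pair outside the control pair at both ends. The co-receptor gene Lrp6 had 389 and 273.8 on the obese arrays and 337 and 368.8 on the control arrays (-0.11 ± 0.19).

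Several secreted antagonists varied widely between arrays of the same group. Sfrp proteins bind Wnt ligands outside the cell, and Sfrp4 had 201 and 653.9 on the obese arrays against 422.4 and 413.1 on the control arrays. The obese arrays lay far below and far above a nearly equal control pair, and the log2 difference of -0.20 ± 0.51 became -1.06 without obese replicate 2 and 0.65 without obese replicate 1. A second, dimmer probe set of Sfrp4 stayed between 37.8 and 44 on all arrays. Sfrp1 had 407.4 and 243.9 on the obese arrays and 346 and 541.5 on the control arrays (-0.46 ± 0.31). Sfrp2 had 488.4 and 302.3 on the obese arrays and 212.7 and 513.6 on the control arrays (0.22 ± 0.44), and here the control pair was the wider. Dkk3, a divergent relative of the Dickkopf antagonists, had 246.6 and 129.6 on the obese arrays and 206.4 and 203.5 on the control arrays (-0.20 ± 0.30). Wif1, another Wnt-binding antagonist, was dim throughout, between 18 and 26.2.

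Among the intracellular genes, Axin2, which is induced by canonical Wnt signalling and restrains it in turn, had 90.9 and 60.1 on the obese arrays and 58.3 and 51.4 on the control arrays. Its groups did not overlap but obese replicate 2 was close to control replicate 1. The log2 difference was 0.43 ± 0.26 (limma adjusted p = 0.699), 0.13 without obese replicate 1 and 0.73 without obese replicate 2. Its relative Axin1 had 331.1 and 258.8 on the obese arrays and 272.2 and 269.4 on the control arrays (0.11 ± 0.16). Tcf7l2, the transcription factor partner of beta-catenin, had 255.5 and 225.2 on the obese arrays and 310.3 and 268.5 on the control arrays. Both obese arrays were lower, by a log2 difference of -0.27 ± 0.15 (limma adjusted p = 0.683), and its second, dim probe set gave 0.12.

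Ctnnb1, which encodes beta-catenin, had 4 probe sets that did not move alike. The brightest had 928.6 and 1147.4 on the obese arrays and 878.5 and 1004 on the control arrays (0.14 ± 0.16), with overlapping groups. A second had both obese arrays above both control arrays (0.30) and another had both below (-0.12), while the last stayed under the floor. Apc and Dvl1 differed by 0.01 ± 0.16 and 0.03 ± 0.20.

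The gap between the 2 obese arrays was wider for these genes than the gap between the 2 control arrays. Over the 30 tested members the median gap was 0.50 on the log2 scale between obese replicates and 0.19 between control replicates, where the 9011 genes had 0.21 and 0.17. A gap of at least 0.5 between the obese replicates was found for 16 members, against 14.7% of all genes, and between the control replicates for 4 members, against 10.2%. Obese replicate 2 was below obese replicate 1 for 22 of 30 members, against 56.5% of all genes, and control replicate 2 below control replicate 1 for 12 of 30, against 48.2%. The widest obese gaps were 1.42 for Wnt4 (with replicate 2 at the floor), 1.12 for Fzd2 and 1.04 for Bmp6 with replicate 1 higher, and -1.70 for Sfrp4 with replicate 2 higher. No test was made of these counts, because the arrays of a group are 1 pair.

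**Figure D3:**
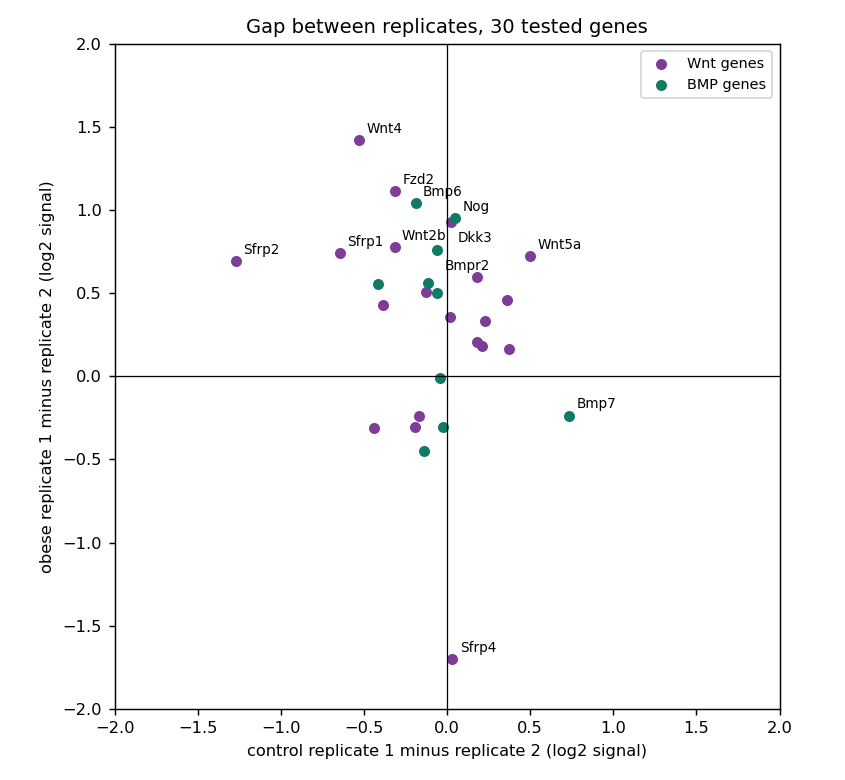
Gap between the 2 obese arrays (vertical axis, replicate 1 minus replicate 2, log2 signal) against the gap between the 2 control arrays (horizontal axis) for the 30 tested genes. Points spread further along the vertical axis, and 22 lie above 0, with Sfrp4 the lowest at -1.70 and Wnt4 the highest at 1.42.

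Markers of other cell types also differed between the obese arrays. Summed signals of 9 measured mesothelium and epithelium markers were 2824.5 and 541.5 on obese replicates 1 and 2, against 1203.1 and 1460.4 on control replicates 1 and 2. Msln, mesothelin, had 590.7 and 164.7 on the obese arrays and 375.1 and 491.8 on the control arrays. The epithelial genes of the list stood out more on obese replicate 1. Krt19 had 405.4 and 47.8 on the obese arrays and 114.7 and 118.5 on the control arrays. Epcam had 198.2 and 13.8 on the obese arrays and 25.4 and 20 on the control arrays. Cdh1 exceeded the floor on obese replicate 1 alone. The sum over 10 smooth muscle and pericyte markers was 5707.6 and 2465 on the obese arrays, against 2796.5 and 2913.7 on the control arrays. Obese replicate 1 was the highest array for both lists. Of the 16 Wnt and BMP genes with a gap of at least 0.5, 15 had obese replicate 1 as the higher obese array. Over all genes, whatever the gap, 56.5% did, and the share at gaps of at least 0.5 was not counted. The 17 stromal and fibroblast markers summed to 17895.5 and 22633.6 on the obese arrays, against 21912.3 and 22757.6 on the control arrays. These sums cover genes that moved apart. Both obese arrays were above both control arrays for 4 and below for 5, against 16.4% and 24% of all genes. Clec3b had a log2 difference of 3.05, and Col1a1 and Col1a2 gave -0.62 and -0.61. In bulk tissue, fewer cells of a type and less RNA per cell cannot be told apart, and the part of these cells in the Wnt and BMP values was not tested.

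All 11 measured adipocyte markers were above the floor on all 4 arrays, and they summed to 17413 and 21559.5 on the obese arrays, against 17585.6 and 16850.4 on the control arrays. By sign 10 of the 11 were higher in obese tissue, against 3907 of all 9011 genes. Both obese arrays were above both control arrays for 4 (Plin1, Slc2a4, Acsl1 and Dgat2), against 16.4% of all genes, and below for 0, against 24%. Macrophage markers summed to 8978.9 and 8883.5 on the obese arrays, against 12290.5 and 14530.5 on the control arrays. All 14 measured genes were lower in sign, against 5104 of all 9011 genes, and 11 were non-overlapping, against 24%. The marker lists were chosen with earlier results of these data known, so such counts describe the listed genes and are not independent evidence. Lymphocyte markers summed to 819.1 and 677.1 on the obese arrays and 1656 and 1180.9 on the control arrays. All 9 tested genes were lower in sign, 5 had non-overlapping groups, against 24% of all genes, and 4 overlapped. The brightest was Cd4, with 303.2 and 270.1 on the obese arrays and 569.1 and 540.8 on the control arrays. Cd3d had 28.8 and 23.3 on the obese arrays and 77.7 and 26.2 on the control arrays, high on control replicate 1 alone. So were Cd3g, with 74.3 and 70 on the obese arrays and 150.8 and 65.3 on the control arrays, and the untested Cd3e. The sums of both immune lists were thus lower on each obese array than on each control array. The sums of endothelium markers lay between 3002 and 3165.4 on all arrays. Of the 10 genes, 2 had both obese arrays above both control arrays (Cldn5 and Esam), against 16.4% of all genes. Another 2 had both below (Tie1 and Egfl7), against 24%. Of the 4 measured epididymis markers, 2 were tested and overlapped. Nerve and Schwann cell markers summed to 3927.4 and 5648.9 on the obese arrays, against 3389.7 and 3317.7 on the control arrays. The brightest of them was S100b, with 2527.3 and 3269.8 on the obese arrays and 2052.4 and 2077.7 on the control arrays. S100b and Pmp22 made up most of each sum, so it is not read as an amount of nerve. Sox10 lay under the floor on all 4 arrays, between 4.9 and 8.1. Of the 7 tested, 2 had both obese arrays above both control arrays and 1 below, against 16.4% and 24% of all genes. The 1 below was Snap25, with 26.6 and 15.4 on the obese arrays and 98 and 40.7 on the control arrays.

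**Figure D4:**
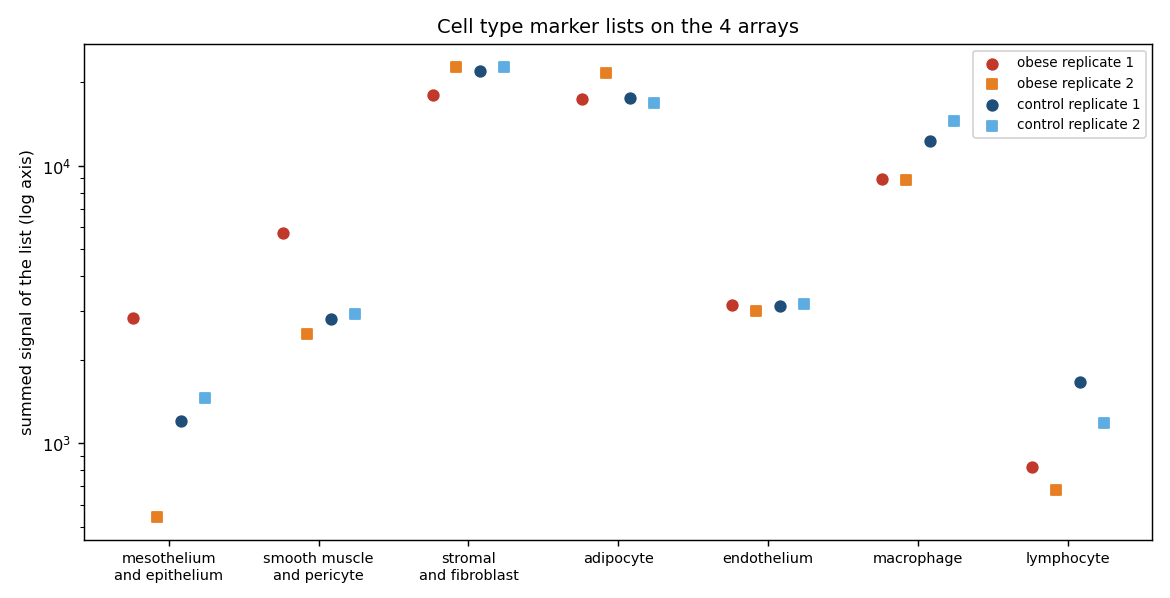
Summed array signal (log axis) of 7 cell type marker lists on obese replicates 1 and 2 and control replicates 1 and 2. Mesothelium and epithelium markers reach 2824.5 on obese replicate 1 and 541.5 on obese replicate 2, with both control arrays between, while endothelium markers stay between 3002 and 3165.4.

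Other genes of the Wnt pathway were read from a list of 74 symbols, of which 53 were measured and 48 tested. None of the 48 passed over all probe sets with limma (4 had an unadjusted p under 0.05, against 8.59% of all genes). Both obese arrays were above both control arrays for 9 and below for 8, where 16.4% and 24% of all genes gave such calls. The list's median log2 difference was -0.02. Sostdc1, a secreted inhibitor of both Wnt and BMP signals, had 64.1 and 74.6 on the obese arrays and 41.1 and 44.5 on the control arrays (0.69 ± 0.20, adjusted p = 0.505). Nkd1, a feedback inhibitor that binds Dishevelled, had 101.3 and 50.1 on the obese arrays and 46.1 and 20.1 on the control arrays (1.20 ± 0.49), with the lower control value under the floor. Celsr2, a planar polarity cadherin, had 29.2 on both obese arrays and lay under the floor on both control arrays, at least 1.40-fold higher in obese tissue. Wls, the carrier of Wnt ligands to the cell surface, gave 0.27 ± 0.13.

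In the other direction Frzb, a Wnt-binding relative of the Sfrp genes, had 330.5 and 191.4 on the obese arrays and 426.7 and 411 on the control arrays (-0.74 ± 0.26, adjusted p = 0.557). Both obese arrays were lower, and replicate 2 was again the lowest. Bcl9, a beta-catenin cofactor, Csnk1e, a casein kinase, and the GTPase Rhoa gave -0.37, -0.31 and -0.20. Gsk3b, the kinase of the destruction complex, was dim at 19.1 to 28 on the 4 arrays and overlapped.

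Of 17 tested Wnt target genes, 5 had both obese arrays above both control arrays and 3 had both below, where 16.4% and 24% of all genes gave such calls. With limma 0 passed over all probe sets, and 6 had an unadjusted p under 0.05, against 8.59% of all genes. These genes also answer to many other signals, and some, such as Nkd1, were counted in the Wnt pathway list as well. Myc, a growth regulator, had 173.5 and 135.8 on the obese arrays and 93.2 and 86.5 on the control arrays (0.77 ± 0.19, adjusted p = 0.467). The matricellular genes Ccn1 and Ccn2 gave 0.77 ± 0.16 and 0.81 ± 0.24, and Jun, an AP-1 subunit, gave 0.34 ± 0.12. Cd44, a hyaluronan receptor that leukocytes also carry, had 161.7 and 152.3 on the obese arrays and 234.3 and 296 on the control arrays (-0.75 ± 0.16, adjusted p = 0.429). The sums of macrophage and of lymphocyte markers were lower in the same samples, though Cd3d, Cd3e and Cd3g were high on control replicate 1 alone. The part of these cells in the Cd44 value was not tested. Fosl1 and Fn1, which encodes fibronectin, gave -0.37 and -0.22, and Ccnd1, the cyclin often read as a Wnt target, overlapped at 0.17.

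The BMP list of 45 other genes had 32 measured and 30 tested, with 6 above and 5 below, against 16.4% and 24% of all genes, and a median of 0.04. With limma 0 passed over all probe sets (2 had an unadjusted p under 0.05, Sostdc1 and Zfp423, against 8.59% of all genes). Sostdc1 was counted in the Wnt pathway list as well. Zfp423, a zinc finger factor known for marking adipocyte precursors, had 253.5 and 289.9 on the obese arrays and 213.6 and 210.3 on the control arrays (0.36 ± 0.14, adjusted p = 0.581). Rgma, a BMP co-receptor, gave 0.55 ± 0.23, and the kinase adaptor Tab2 gave 0.20. The transducer Smad1 gave -0.17, and its partners Smad5 and Smad4 overlapped at -0.12 and -0.02. Acvrl1, a BMP receptor of endothelium, the Smad co-repressor Skil and Xiap, an apoptosis inhibitor that also links BMP receptors to Tab1, gave -0.17, -0.23 and -0.24.

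Of 15 tested BMP target genes, 2 were above and 2 below, against 16.4% and 24% of all genes. In the limma test 0 passed (1 had an unadjusted p under 0.05, Id3, against 8.59% of all genes). The list holds the member Nog, and Smad6, Smad7 and Bambi were counted in the BMP pathway list as well. Id proteins block the DNA binding of helix-loop-helix factors and are common readouts of BMP signalling. Id3 had 757.9 and 543.3 on the obese arrays and 913.3 and 981.6 on the control arrays (-0.56 ± 0.19, adjusted p = 0.537). Id4 had 110 and 35.6 on the obese arrays and 27.6 and 24.8 on the control arrays (1.26 ± 0.51, adjusted p = 0.603). Id1 overlapped at 0.17 and Id2 at -0.33, so the 4 Id genes did not share a direction. The homeobox gene Msx1 gave 0.13, and hepcidin, Hamp, gave -0.23.

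**Figure D5:**
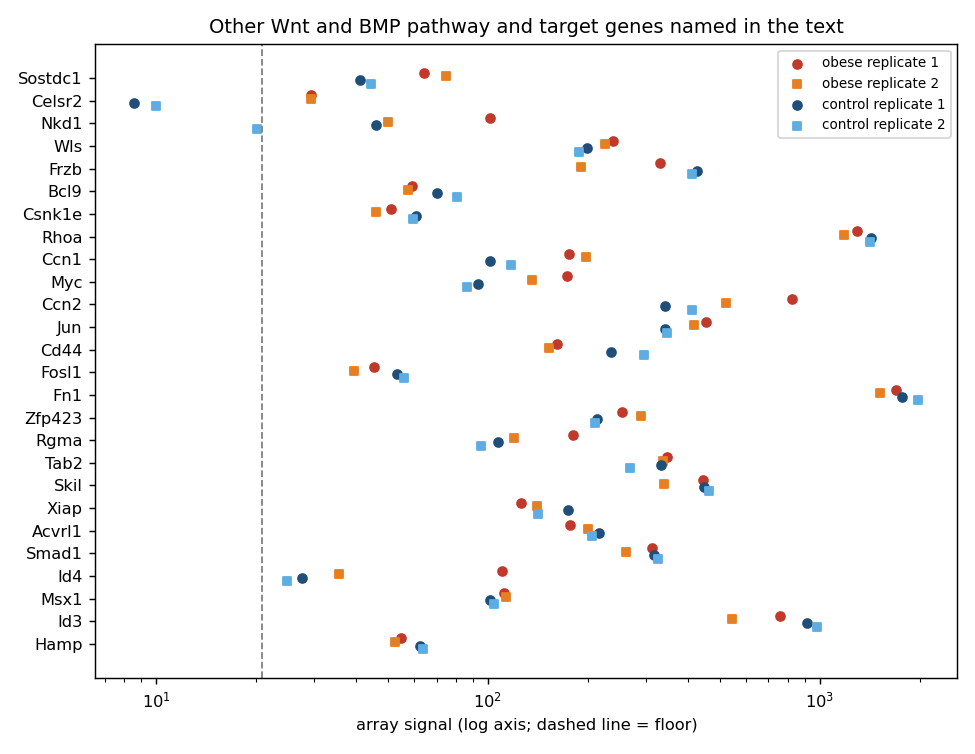
Array signal (log axis) of the further Wnt and BMP pathway and target genes chosen by smallest unadjusted p on the 4 arrays, all with non-overlapping groups, with the floor of 20.8 as a dashed line. Obese points lie to the right for Sostdc1, Nkd1, Myc, Ccn1 and Id4, and to the left for Frzb, Cd44 and Id3.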

How the data were processed

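Signals of 15923 probe sets on 4 single-colour arrays were taken as the authors deposited them, as linear intensities. Neither label nor header states their software or normalization. In the values themselves, the mean after trimming 2% at each end was the same on the 4 arrays to within 5%, so no scaling was added. The median signal was 75 on obese replicate 2, against 82.2 on obese replicate 1 and 83.1 and 82.8 on control replicates 1 and 2. The 57 control probe sets were left out. The platform annotation pairs 12783 of the other 15866 probe sets with 1 symbol, 312 with several and 2771 with none. The table of assembly GRCr8 held the gene identifier of 12748 and changed 0 symbols. Intensities were raised to the floor of 20.8, log2 was taken, and probe sets above it on at least 2 arrays were tested with limma 3.58.1 in R 4.3.3 (trended variance, two-sided, 5.83 degrees of freedom, Benjamini-Hochberg over 12929 probe sets). The number of arrays limits the precision. The code was tested on simulated data. All member genes are named. Of each further pathway and target list, up to 4 genes a direction are named, by smallest unadjusted p among genes with non-overlapping groups. Gsk3b, Ccnd1, Smad4, Smad5, Id1, Id2 and the single cell type markers were named after their values were seen. Members and lists were chosen with earlier results of these data known. Alternatives were 3 scalings, 2 floors, a pseudocount of 16, 2 filters, 2 variance models, a replicate block, averaging each gene's probe sets, and leaving out each array.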

Additional observations from a re-analysis of the deposited data

How the results depend on the processing

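With 2 arrays a group, single arrays decide most of these values. The number of probe sets past an adjusted p of 0.05 was 0, but 3 with a pseudocount of 16 in place of the floor, 6 with no filter on dim probe sets and 1 with eBayes without a trend. With the replicate number as a block it stayed at 0. Calls of non-overlapping groups do not use the block, so this setting could not change them. Deviations of same-numbered arrays from their group means correlated at 0.05 over the tested probe sets. The labels do not say whether same-numbered samples were paired, and this single value cannot settle it. Members with both obese arrays above both control arrays numbered 4, and 7 with median centring, under which the share over all probe sets also went up, to 21.7% against 15.6%. Members with both below numbered 2, and 1 with the mean over a gene's tested probe sets. Without 1 array, when the lone array of a group stands for it, 7 to 18 members lay above and 3 to 15 below. Leaving out obese replicate 1 gave 7 above and 15 below, and leaving out obese replicate 2 gave 18 above and 3 below. Leaving out control replicate 1 gave 7 above and 7 below, and control replicate 2 gave 8 above and 4 below. In these fits 27% to 32.1% of all probe sets lay above and 36.1% to 46% below. The median log2 difference of tested BMP members, -0.04, ranged between -0.44 (without obese replicate 1) and 0.16, and that of Wnt members, 0.06, between -0.10 and 0.20. Bmp6 turned to -0.26 with the mean over its probe sets. Bmp15 turned to 0.054 with median centring, 0.057 with quantile normalization, 0.034 with cyclic loess, 0.011 with the floor at the 10th percentile and 0.0040 with the pseudocount. Bmpr2 turned to 0.017 with median centring, 0.010 with quantile normalization and 0.0072 with cyclic loess. Leaving out 1 array turned the sign of 20 of the 30 tested members, and the cause was not tested. The same count was not made over all genes, so it is not read as a trait of the members. Over the 4 fits, the log2 difference lay, for Wnt2b between -0.17 and 0.60, Wnt4 between -1.24 and 0.18, Wnt5a between -0.29 and 0.44, Fzd1 between -0.067 and 0.38, Fzd2 between -0.76 and 0.36, Lrp6 between -0.36 and 0.14 and Sfrp2 between -0.42 and 0.85. For the next genes it lay, for Sfrp4 between -1.06 and 0.65, Dkk3 between -0.66 and 0.27, Wif1 between -0.12 and 0.22, Dvl1 between -0.16 and 0.21, Axin1 between -0.065 and 0.29, Apc between -0.091 and 0.12 and Ctnnb1 between -0.016 and 0.29. It also lay, for Bmp4 between -0.44 and 0.12, Bmp6 between -0.51 and 0.53, Bmp7 between -0.32 and 0.41, Bmp15 between -0.038 and 0.0035, Bmpr2 between -0.44 and 0.32 and Nog between -0.64 and 0.31.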
